A study of Mus musculus with 10 samples.

Results

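Mitochondria of the heart fuse with each other and divide, and the proteins that do this work are encoded by a small set of nuclear genes. The 10 genes described here are Mfn1, Mfn2, Opa1, Dnm1l, Fis1, Mff, Mief1, Mief2, Mtfp1 and Oma1. They were chosen by name for their roles in fusion and fission, with earlier results of these data known. All 10 were measured, each by 1 probe set with a single gene symbol, among 19938 genes in all. All 10 also passed the filter on dim genes, which left 13953 genes for the test.

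The expression of these genes was measured in ventricles of 10 mice, 1 Affymetrix array per mouse. The 5 tamoxifen-labelled mice are titled PGC-1a-/-bf/f/MerCre. They were injected with 50 mg/kg of tamoxifen per day on 2 days at 2 months of age, to switch on a Cre recombinase, and their genotype label is PGC-1a KO/PGC-1b KO. The 5 vehicle-labelled mice are titled PGC-1a-/- and received sunflower seed oil alone, and their label says that PGC-1b is not affected. Both groups are labelled as lacking PGC-1a (gene Ppargc1a) and were sampled at 3 months of age, 1 month after injection. The source names give the vehicle-labelled mice the floxed PGC-1b (gene Ppargc1b) and MerCre alleles too, while their titles and the design text do not. The effects of tamoxifen itself, of active Cre and of any loss of PGC-1b cannot be told apart in this design. The promoter that drives MerCre, and so the cells it acts in, is not named in the labels. By their labels, the groups ask how the RNA levels of these genes differ between grown hearts labelled as lacking both PGC-1 proteins and hearts labelled as lacking PGC-1a alone.

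Outer membranes are fused by the GTPases Mfn1 and Mfn2, and inner membranes by the GTPase Opa1, which also keeps the cristae in shape and is cut by the protease Oma1 under stress. Fission is carried out by the dynamin-related GTPase Dnm1l, which comes from the cytosol and is held on the outer membrane by the receptors Mff, Mief1 and Mief2. Fis1 is a further outer-membrane protein, known as a fission receptor in yeast, and Mtfp1 is an inner-membrane protein whose loss is known to favour long, fused mitochondria. The PGC-1 proteins are coactivators that raise mitochondrial genes together with nuclear receptors such as Esrra (ERR alpha), and Mfn2 is a known target of this pair in muscle.

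Promoter windows of 5 of the genes are shown so that the falls described below can be read beside the sequence in front of each gene. They are the gene with the deepest fall (Mtfp1), the 3 genes with a motif match (Opa1, Mfn1 and Mief1) and Mfn2, which serves with Mfn1 and was not called. The windows of Dnm1l, Mff and Oma1, which also fell, and of Fis1 and Mief2, which were not called, held no match and are not shown. The choice therefore does not show that matches go with falls. Each window runs from 250 bases before to 50 bases after the annotated start, 5′ to 3′ on the gene's strand, from RefSeq on GRCm38.p6. Capitals mark motif matches. For Mfn2, 1 of its 3 windows is shown.
Mtfp1, chr11:4095382-4095681, minus strand: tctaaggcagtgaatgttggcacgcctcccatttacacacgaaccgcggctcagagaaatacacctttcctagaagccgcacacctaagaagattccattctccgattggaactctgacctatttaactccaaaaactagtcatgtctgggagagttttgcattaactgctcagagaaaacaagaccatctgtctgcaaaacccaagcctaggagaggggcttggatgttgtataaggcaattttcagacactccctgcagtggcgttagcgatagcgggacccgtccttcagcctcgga
Opa1, chr16:29579084-29579383, plus strand: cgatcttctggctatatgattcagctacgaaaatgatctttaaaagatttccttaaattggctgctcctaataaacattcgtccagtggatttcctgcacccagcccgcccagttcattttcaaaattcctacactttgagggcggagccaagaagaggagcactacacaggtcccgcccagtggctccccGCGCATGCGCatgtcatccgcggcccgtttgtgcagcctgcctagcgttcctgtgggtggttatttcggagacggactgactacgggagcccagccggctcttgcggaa
Mfn1, chr3:32529232-32529531, plus strand: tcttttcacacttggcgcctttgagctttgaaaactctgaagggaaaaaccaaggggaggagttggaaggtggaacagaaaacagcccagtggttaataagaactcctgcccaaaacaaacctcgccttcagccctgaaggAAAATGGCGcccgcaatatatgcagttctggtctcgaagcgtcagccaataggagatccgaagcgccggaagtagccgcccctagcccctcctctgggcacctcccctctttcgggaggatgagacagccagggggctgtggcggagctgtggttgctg
Mief1, chr15:80233830-80234129, plus strand: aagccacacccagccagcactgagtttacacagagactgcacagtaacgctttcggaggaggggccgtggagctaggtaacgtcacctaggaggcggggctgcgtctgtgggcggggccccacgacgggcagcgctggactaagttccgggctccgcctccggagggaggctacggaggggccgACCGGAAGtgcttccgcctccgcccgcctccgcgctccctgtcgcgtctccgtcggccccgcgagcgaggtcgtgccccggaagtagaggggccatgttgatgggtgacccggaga
Mfn2, chr4:147904612-147904911, minus strand: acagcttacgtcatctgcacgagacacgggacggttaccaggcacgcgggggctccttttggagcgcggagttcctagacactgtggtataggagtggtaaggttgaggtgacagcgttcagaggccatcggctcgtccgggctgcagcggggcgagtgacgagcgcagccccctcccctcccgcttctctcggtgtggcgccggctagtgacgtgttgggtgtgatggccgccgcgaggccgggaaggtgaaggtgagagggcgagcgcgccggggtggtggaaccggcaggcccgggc

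The 15 promoter windows of the 10 genes were searched on both strands for 4 motifs of factors known to act on mitochondrial genes. The ERR response element (TNAAGGTCA) matched in 0 of the 10 genes, in 1.28% of all 32851 RefSeq promoter windows and in 0.799% of the 14021 windows of tested genes. The NRF1 core (GCGCATGC) matched in Opa1 alone among the 10 genes, in 2.71% of all windows and in 4.55% of those of tested genes. Its 2 matches there, 1 on each strand, overlap and begin 59 and 57 bases before the start. The GABP site (ACCGGAAG) matched in Mief1 alone, 66 bases before the start, in 2.3% of all windows and in 3.82% of those of tested genes. The YY1 site (AANATGGCG) matched in Mfn1 alone, 109 bases before the start, in 2.38% of all windows and in 4.14% of those of tested genes. A match describes letters in a window and is no measured binding, and a window without one says nothing about the factor.

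Of the 10 fusion and fission genes, 7 fell in the tamoxifen-labelled arrays, 3 were not called and 0 rose by limma, with 0 higher at an unadjusted p under 0.05 too. Mtfp1 fell 2.06-fold and Opa1 1.53-fold, Dnm1l, Mfn1, Mief1, Oma1 and Mff fell by less, and Mfn2, Fis1 and Mief2 were not called. The test was limma on log2 signals with Benjamini-Hochberg adjustment over all 13953 genes and a threshold of 0.05. By the same rule 8.28% of all tested genes were lower and 13.6% higher. The 7 calls became 5 without the vehicle-labelled array 3, which lost Mff and Oma1. In 6 genes all 5 tamoxifen-labelled values lay below all 5 vehicle-labelled ones, as they did in 6.12% of all tested genes, and in 0 genes all 5 lay above, as in 10.5% of all tested genes. The median log2 fold change of the 10 genes was -0.24, and that of all tested genes was 0.014. Each fold change is tamoxifen-labelled minus vehicle-labelled with its SE after ±.

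**Figure D1:**
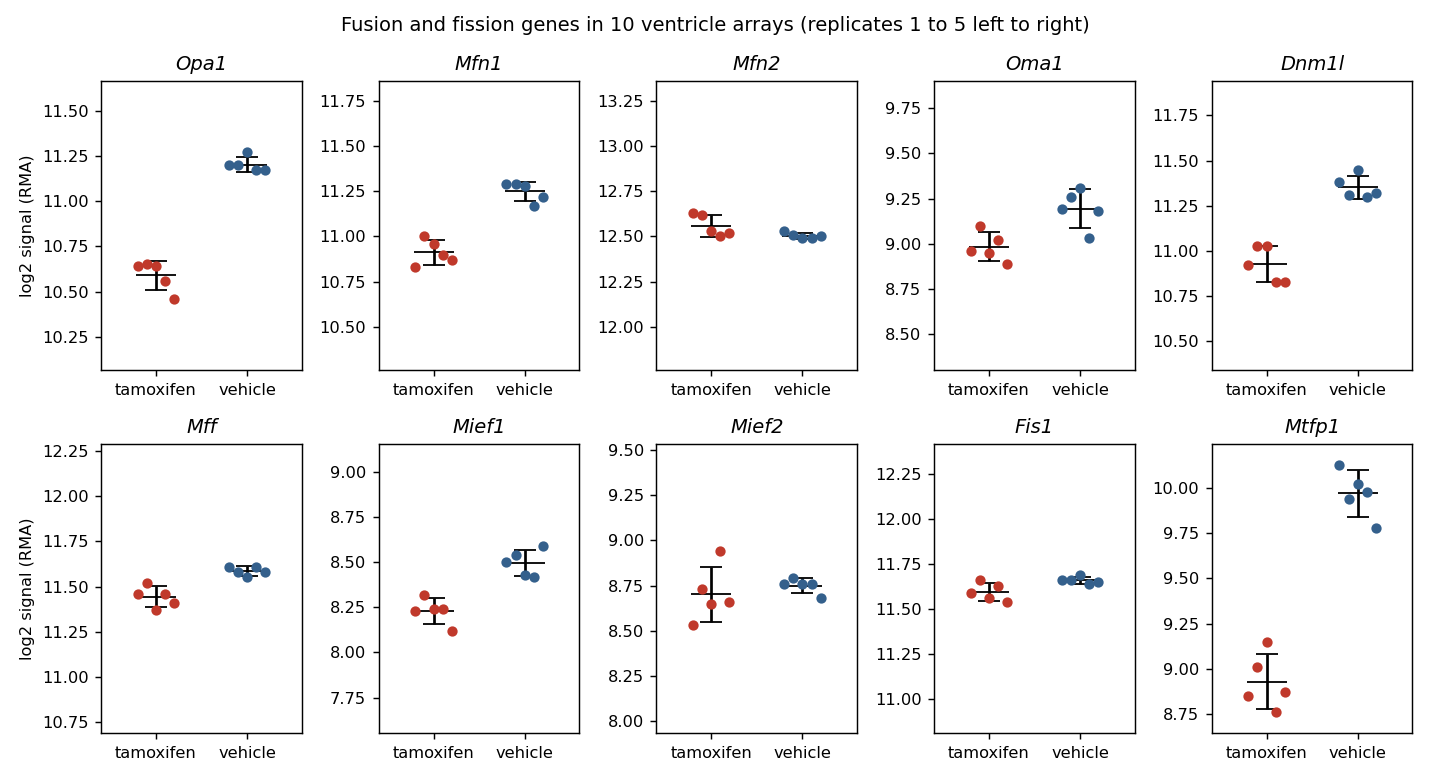
Log2 signal (RMA) of the 10 genes in each array, 1 panel per gene, with tamoxifen-labelled arrays left of vehicle-labelled ones. Points are replicates 1 to 5 from left to right, the long bar is the mean and the whiskers are the SD (n = 5), and every panel spans the same height. The groups are apart in Opa1, Mfn1, Dnm1l, Mff, Mief1 and Mtfp1 and overlap in Mfn2, Oma1, Mief2 and Fis1.

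The arrays are known only by their labels. The probe set of Ppargc1b, the gene to be deleted, read 10.03 ± 0.10 in the tamoxifen-labelled and 9.76 ± 0.10 in the vehicle-labelled arrays (SD, n = 5 each), higher by 0.27 ± 0.061 (limma adjusted p = 0.00528), which goes against the label. The labels do not place this probe set inside or outside the floxed stretch, and if it lies outside, its level checks nothing. Ppargc1a, labelled as lost in both groups, read 11.20 ± 0.23 in the tamoxifen-labelled and 10.81 ± 0.14 in the vehicle-labelled arrays, higher by 0.39 ± 0.095 (limma adjusted p = 0.00813). It was thus about as bright as Mfn1 (means 10.91 and 11.25) in both groups, which also goes against the label. Whether its probe set lies inside the disrupted stretch is not labelled either, and if it lies outside, its level checks nothing. Esrra fell by 0.42 ± 0.057 (limma adjusted p = 5.55e-05). Column medians were 7.18 to 7.24 in 9 arrays and 7.31 in the tamoxifen-labelled array 2. The defining markers of heart muscle cells were all bright, with the dimmest of 8, Mybpc3, at a mean of 12.49. Of these 8 markers 1 fell (Ryr2) and 1 rose (Actn2), beside 8.28% lower and 13.6% higher of all tested genes. The summed signal of the 8 markers was 116529 to 118958 in the tamoxifen-labelled and 115554 to 117183 in the vehicle-labelled arrays. The call of Ryr2 was lost without vehicle-labelled array 1, 3 or 5 or tamoxifen-labelled array 5 (adjusted p from 0.0514 to 0.0643, with 0.000861 to 0.0643 over the alternatives), and 2 of the 8 fell without tamoxifen-labelled array 2 and in 5 other settings. Macrophage markers rose in 7 of 10 genes, with sums of 7227 to 8729 in the tamoxifen-labelled and 6137 to 7049 in the vehicle-labelled arrays. Fibroblast markers also rose in 7 of 10 genes, with sums of 22899 to 25164 in the tamoxifen-labelled and 20611 to 21493 in the vehicle-labelled arrays. Of the other markers, 1 of 8 of endothelium (Cldn5), 2 of 4 of smooth muscle and 1 of 3 of skeletal muscle (Myl1) rose, and 0 of 3 atrial, 0 of 3 adipocyte and 0 of 1 erythroid markers were called, at an unadjusted p under 0.05 too. The smooth muscle count was 1 without tamoxifen-labelled array 3 or 5 or without the filter, where Acta2 lost its call (adjusted p from 0.0558 to 0.0656, with 0.00246 to 0.0656 over the alternatives), and 3 with median centring. The summed atrial signal spread widely, from 2688 to 6657 in the tamoxifen-labelled arrays against 4199 to 5249 in the vehicle-labelled arrays. The lack of an atrial call thus does not show equal atrial content. Without tamoxifen-labelled array 5, 1 atrial marker was lower, and with the replicate block the erythroid marker was higher. The part of these other cell types in the changes of the fusion and fission genes was not tested. In whole ventricle, fewer cells of a type and less RNA per cell cannot be told apart.

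The inner-membrane fusion gene Opa1 fell in every tamoxifen-labelled array. Its log2 signals were 10.64, 10.65, 10.64, 10.56 and 10.46 in the tamoxifen-labelled arrays 1 to 5, against 11.20, 11.20, 11.27, 11.17 and 11.17 in the vehicle-labelled arrays 1 to 5. The groups were far apart, with the highest tamoxifen-labelled value 10.65 and the lowest vehicle-labelled value 11.17. The difference was -0.61 ± 0.051 (limma adjusted p = 2.25e-07), with a 95% interval from -0.72 to -0.50. It kept its call in all 19 alternatives, between -0.65 and -0.58.

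Oma1, the protease that cuts Opa1 under stress, fell by less. Its signals were 8.96, 9.10, 8.95, 9.02 and 8.89 in the tamoxifen-labelled arrays, against 9.19, 9.26, 9.31, 9.03 and 9.18 in the vehicle-labelled arrays. The vehicle-labelled array 4 was low, so the groups overlapped, and 4 of 5 tamoxifen-labelled values lay below all vehicle-labelled ones. The difference was -0.21 ± 0.059 (limma adjusted p = 0.0178). The call was lost without the vehicle-labelled array 3 (adjusted p = 0.0547), and the alternatives together gave adjusted p values from 0.000938 to 0.0547.

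The outer-membrane fusion genes did not change alike. Mfn1 had log2 signals of 10.83, 11, 10.96, 10.90 and 10.87 in the tamoxifen-labelled arrays, against 11.29, 11.29, 11.28, 11.17 and 11.22 in the vehicle-labelled arrays. All tamoxifen-labelled values lay below all vehicle-labelled ones, a fall of 0.34 ± 0.050 (limma adjusted p = 0.000125). Mfn2, which also tethers mitochondria to the endoplasmic reticulum, had 12.63, 12.62, 12.53, 12.50 and 12.52 in the tamoxifen-labelled arrays, against 12.53, 12.51, 12.49, 12.49 and 12.50 in the vehicle-labelled arrays. Its groups overlapped, with the tamoxifen-labelled arrays 1 and 2 above the rest. The Mfn2 difference of 0.056 ± 0.046 was not called (limma adjusted p = 0.427), and its 95% interval ran from -0.042 to 0.15.

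**Figure D2:**
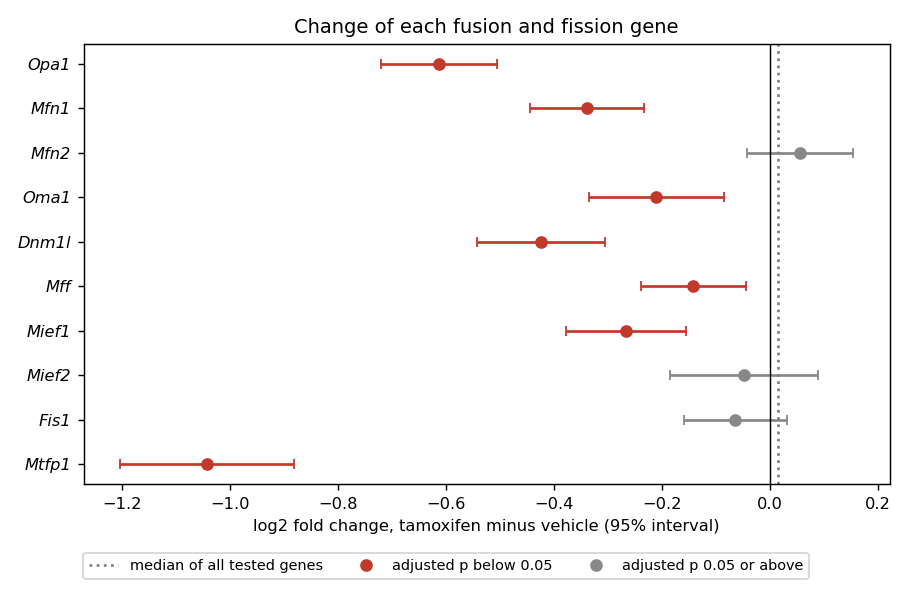
Log2 fold change of each of the 10 genes, tamoxifen-labelled minus vehicle-labelled, with its 95% interval (5 arrays per group). Red points had a limma adjusted p below 0.05 and grey points did not; the dotted line is the median of all tested genes at 0.014. Mtfp1 lies at -1.04 and Opa1 at -0.61, and the intervals of Mfn2, Mief2 and Fis1 hold 0.

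Dnm1l, the GTPase that constricts mitochondria, was lower in every tamoxifen-labelled array. Its signals were 10.92, 11.03, 11.03, 10.83 and 10.83 in the tamoxifen-labelled arrays, against 11.38, 11.31, 11.45, 11.30 and 11.32 in the vehicle-labelled arrays. The groups did not overlap, and the difference was -0.42 ± 0.056 (limma adjusted p = 4.10e-05). It stayed between -0.46 and -0.40 over the alternatives.

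The proteins that hold Dnm1l on the outer membrane were encoded by genes with smaller falls or no call. The receptor gene Mief1 had 8.23, 8.32, 8.24, 8.24 and 8.12 in the tamoxifen-labelled arrays, against 8.50, 8.54, 8.43, 8.42 and 8.59 in the vehicle-labelled arrays. It fell by 0.27 ± 0.053 with no overlap of the groups (limma adjusted p = 0.00169). Its relative Mief2 had 8.53, 8.73, 8.65, 8.94 and 8.66 in the tamoxifen-labelled arrays, against 8.76, 8.79, 8.76, 8.76 and 8.68 in the vehicle-labelled arrays. The tamoxifen-labelled array 4 was above every vehicle-labelled array and arrays 1, 3 and 5 below all of them. The Mief2 difference of -0.048 ± 0.065 was not called (limma adjusted p = 0.654), and the 95% interval from -0.19 to 0.089 spans falls of the size seen for Mff.

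Mff, the main receptor of Dnm1l in many mammalian cells, had 11.46, 11.52, 11.37, 11.46 and 11.41 in the tamoxifen-labelled arrays, against 11.61, 11.58, 11.55, 11.61 and 11.58 in the vehicle-labelled arrays. The groups were just apart, and the difference was -0.14 ± 0.046 (limma adjusted p = 0.0364). That call was lost without the filter on dim genes (adjusted p = 0.0678) and without any single array other than the tamoxifen-labelled array 2 (0.0558 to 0.0825), and the full range was 0.00364 to 0.0825. Fis1 had 11.59, 11.66, 11.56, 11.63 and 11.54 in the tamoxifen-labelled arrays, against 11.66, 11.66, 11.69, 11.64 and 11.65 in the vehicle-labelled arrays. In 4 of 5 tamoxifen-labelled arrays Fis1 lay below all vehicle-labelled ones, and array 2 matched the middle of them. The Fis1 difference of -0.064 ± 0.045 was not called (limma adjusted p = 0.342; 95% interval from -0.16 to 0.031).

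Mtfp1, the inner-membrane fission gene, had the deepest fall of the 10. Its signals were 8.85, 9.01, 9.15, 8.76 and 8.87 in the tamoxifen-labelled arrays, against 10.13, 9.94, 10.02, 9.98 and 9.78 in the vehicle-labelled arrays. The nearest values of the groups, 9.15 and 9.78, were further apart than the spread within either group. The fall of 1.04 ± 0.076 (limma adjusted p = 5.31e-08; 95% interval from -1.20 to -0.88) placed Mtfp1 at rank 21 of 13953 genes ordered from the deepest fall. It kept its call in all 19 alternatives, between -1.10 and -1.0.

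Within a group, some arrays held the extreme values of many of the 10 genes. The same was not counted over all tested genes, so whether the 10 moved together more than other genes was not tested. The tamoxifen-labelled array 2 held the highest or tied highest value of its group in 7 of the 10 genes, and array 5 the lowest or tied lowest in 5. Among the vehicle-labelled arrays, array 4 was lowest or tied lowest in 7 of the 10. The mean deviation from the group mean over the 10 genes was 0.077 for the tamoxifen-labelled array 2, which also had the highest column median, and -0.070 for array 5. Without the tamoxifen-labelled array 2 the same count of 7 genes fell.

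Related genes were then set against each other within each array, which takes out a shift that is equal for both genes. A shift that differs with the brightness of the genes is not taken out. For 11 pairs, the difference in log2 signal between the 2 genes was compared between the groups by an exact two-sided permutation test, for which 0.00794 is the smallest p that 5 against 5 arrays can give. Values were adjusted over the 11 pairs, and the pairs were chosen with earlier results known. The adjustment does not account for that choice, so the p values are no support independent of the single-gene results. Mfn1 fell relative to Mfn2 by 0.39 ± 0.045 (SE; exact p = 0.00794, adjusted p = 0.0097). Opa1 fell relative to Mfn2 by 0.67 ± 0.035, relative to Oma1 by 0.40 ± 0.048 and relative to Dnm1l by 0.19 ± 0.029, each with the same p. Both Opa1 and Dnm1l fell, and the fall of Opa1 was the deeper.

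Within the fission genes, Dnm1l fell relative to Fis1 by 0.36 ± 0.049, to Mff by 0.28 ± 0.061 and to Mief2 by 0.38 ± 0.098, each with an exact p of 0.00794 and an adjusted p of 0.0097. Mtfp1 fell relative to Dnm1l by 0.62 ± 0.061 and relative to Opa1 by 0.43 ± 0.079, with those same values. The pair of Dnm1l and Mief1 differed by -0.16 ± 0.060 (exact p = 0.0397, adjusted p = 0.0397). That call was lost without vehicle-labelled array 1, 3 or 4 or tamoxifen-labelled array 1, 2, 4 or 5 (adjusted p from 0.0556 to 0.0794, with 0.0238 to 0.0794 over all alternatives). Mief1 and Mief2 differed by -0.22 ± 0.082 (exact p = 0.0238, adjusted p = 0.0262), a call lost without vehicle-labelled array 1 or 5 or tamoxifen-labelled array 4 (adjusted p from 0.0524 to 0.0635, with 0.00873 to 0.0635 over all alternatives). An unequal change within an array does not show that either gene stayed the same.

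**Figure D3:**
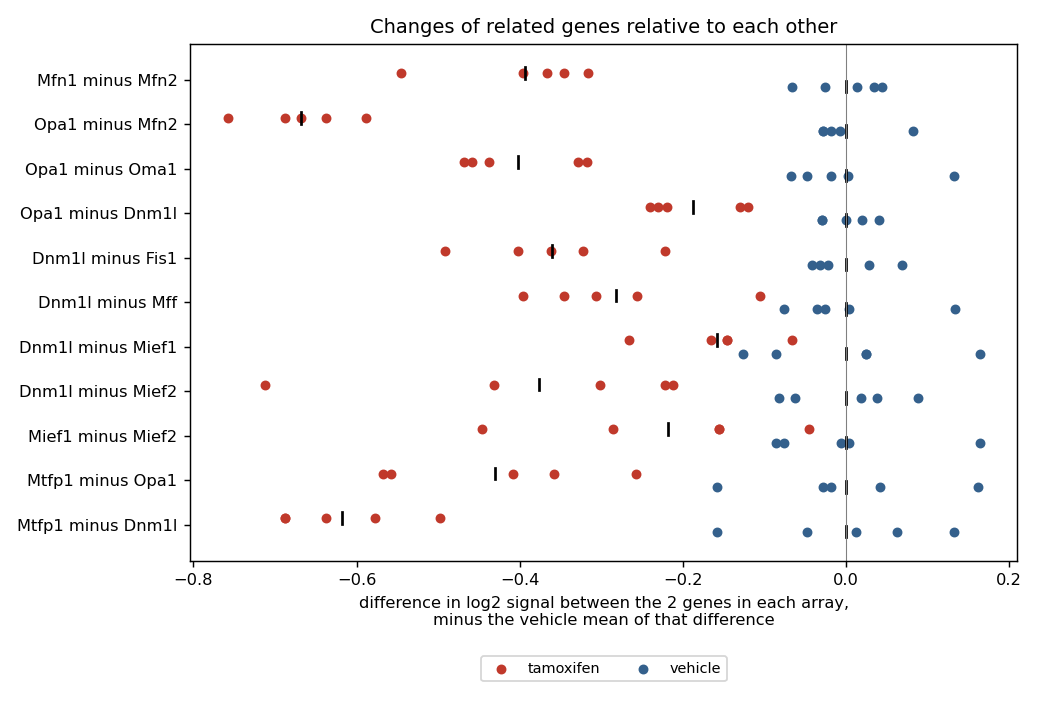
Difference in log2 signal between the 2 named genes in each array, minus the vehicle-labelled mean of that difference, for the 11 pairs. Red points are the 5 tamoxifen-labelled arrays, blue points the 5 vehicle-labelled arrays below them, and black bars the means. The groups are apart in 9 pairs and overlap in Dnm1l with Mief1 and in Mief1 with Mief2.

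For each gene that fell, the 3 other tested genes with the most similar profile were found by the root mean square difference over the 10 arrays, after each gene was centred on its vehicle-labelled mean. For Mtfp1 these were Coq5, an enzyme of coenzyme Q synthesis, Dlst, of the 2-oxoglutarate dehydrogenase complex, and Ptgr2. Their distances were 0.059, 0.083 and 0.094 on the log2 scale, against a median of 0.76 from Mtfp1 to all other tested genes. For Opa1 they were Bcat2 and Hibch, which break down branched-chain amino acids, and Kyat3, at 0.036, 0.038 and 0.040 (median 0.45). For Dnm1l they were Acsf3, Cisd1 and the complex I gene Ndufa2, at 0.033, 0.034 and 0.040 (median 0.33). For Mfn1 they were Tfam, which packs and transcribes mitochondrial DNA, Pyurf and U2af1l4, at 0.031, 0.040 and 0.042 (median 0.27). Oma1 was closest to Mtch2, the channel gene Vdac3 and the import receptor gene Tomm70a, at 0.038, 0.039 and 0.040 (median 0.20). Mief1 was closest to Fbh1, Maip1 and Qsox2, at 0.037, 0.042 and 0.045 (median 0.23). Mff was closest to Mgrn1, Cd300lg and Med16, at 0.025, 0.026 and 0.026 (median 0.15). In 0 of these 7 genes was another of the 10 among the 3 closest. A gene with a like change between the groups is close by this measure, whatever it does. The medians were larger for genes with deeper falls, and the closest genes were picked from all tested genes. The gap between a distance and its median thus shows no special likeness. Roles are given for only some of the close genes, and the share of mitochondrial genes among them was not counted.

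Partners and regulators of the 10 genes were described from lists of textbook members. Of 10 tested fusion partners and regulators, 4 fell and 0 rose by limma. At an unadjusted limma p under 0.05, 6 were lower and 0 higher, beside 1768 and 2957 of all 13953 tested genes. Over the alternatives the lower count was 3 to 6 and the higher count 0. Of all tested genes 8.28% were lower and 13.6% higher by limma. The median log2 fold change of the fusion partners and regulators was -0.16. Miga2, an outer-membrane protein that promotes fusion, fell by 0.65 ± 0.058 (limma adjusted p = 5.60e-07). Parl, a protease of the inner membrane, fell by 0.44 ± 0.056, and the outer-membrane carrier-like gene Slc25a46 by 0.22 ± 0.048. Pld6, a phospholipase that acts with the mitofusins, fell by 0.19 ± 0.061 (adjusted p = 0.0328), a call lost in 7 of 19 alternatives (0.00500 to 0.0850). Yme1l1, the other protease that cuts Opa1, was at 0.014 ± 0.047, and the membrane scaffold gene Stoml2 at -0.0040 ± 0.048.

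Of 16 tested fission partners and modifiers of Dnm1l, 1 fell and 4 rose, beside 8.28% lower and 13.6% higher of all tested genes. Their median log2 fold change was 0.034. Mul1, an outer-membrane ligase that acts on Dnm1l and Mfn2, fell by 0.69 ± 0.067 (limma adjusted p = 1.34e-06). The rises included Spire1, an actin nucleator (0.35 ± 0.082, adjusted p = 0.00528), the kinase gene Rock1 (0.28 ± 0.052, adjusted p = 0.00113) and Senp5, which removes SUMO from Dnm1l (0.20 ± 0.045, adjusted p = 0.00495). Inf2, a formin that builds actin where mitochondria divide, was at -0.0060 ± 0.055. In the same arrays 7 of 10 fibroblast markers and 7 of 10 macrophage markers rose, and their part in these rises was not tested. The count of lower genes in this list was 3 with array weights or after quantile normalization, and 2 without vehicle-labelled array 2, without tamoxifen-labelled array 2, with a trended and robust prior or with the dimmest 50% of genes left out.

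Of 9 tested genes that move mitochondria along microtubules, 1 was lower and 1 higher, beside 8.28% and 13.6% of all tested genes. Trak2, an adaptor for motors, fell by 0.23 ± 0.051 (limma adjusted p = 0.00343) and the kinesin gene Kif5b rose by 0.21 ± 0.050 (adjusted p = 0.00669). Rhot1, the outer-membrane GTPase that carries the motors, was at -0.048 ± 0.051. The lower count here was 3 with array weights and 2 after quantile normalization or without the tamoxifen-labelled array 2, and the higher count was 2 with a trended and robust prior. Of 7 tested genes of the contacts with the endoplasmic reticulum, Itpr2, a calcium channel, was lower by 0.19 ± 0.057 (adjusted p = 0.0226) and the tether gene Vapa higher by 0.17 ± 0.050 (adjusted p = 0.0218). Both calls were lost without vehicle-labelled array 1 or 5, and the higher count was 2 with a trended and robust prior, with median centring or with the dimmest 50% of genes left out. Itpr2 was also lost without tamoxifen-labelled array 4 or 5 and without the filter, with adjusted p from 0.00391 to 0.0634 over all alternatives, and Vapa from 0.00222 to 0.0624.

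The genes of cristae organisation and the outer-membrane insertion complex, and those of mitophagy, were set beside the 10. Of 12 tested cristae genes 11 fell, beside 8.28% of all tested genes, with a median of -0.47. The deepest falls were those of Samm50 (-0.73 ± 0.046), Micos10 (-0.73 ± 0.055), Chchd3 (-0.70 ± 0.045) and Immt (-0.66 ± 0.045). Chchd6 was the 1 not called, at -0.082 ± 0.055. Of 11 tested mitophagy genes 0 were called with all arrays by limma, beside 8.28% lower and 13.6% higher of all tested genes. At an unadjusted p under 0.05 there were 4 higher and 1 lower, beside 2957 and 1768 of all 13953 tested genes. The log2 fold changes of the 11 mitophagy genes ran from -0.14 to 0.15. The lower count of mitophagy genes reached 2 after quantile normalization and the higher count 2 in 4 of the alternatives. The difference between these lists and the 10 fusion and fission genes was not tested.

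**Figure D4:**
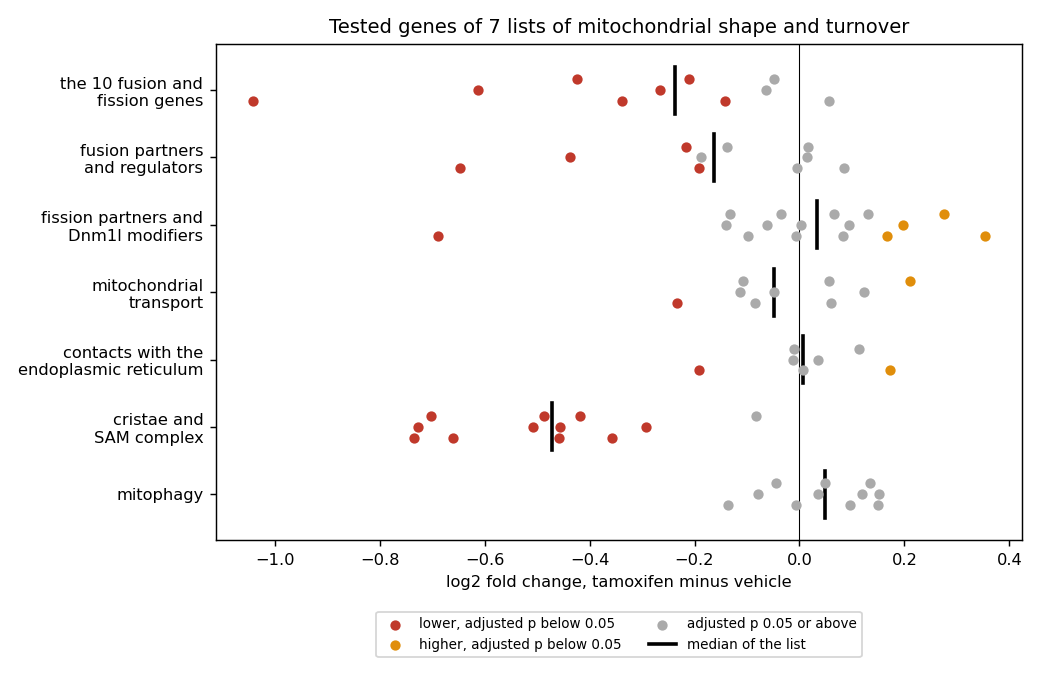
Log2 fold change, tamoxifen-labelled minus vehicle-labelled, of each tested gene in 7 lists, 1 point per gene. Red points were lower and orange points higher at a limma adjusted p below 0.05, grey points were not called, and black bars are list medians. The 10 fusion and fission genes spread from -1.04 to 0.056, while 11 of 12 cristae genes fell and 0 of 11 mitophagy genes were called.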

How the data were processed

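RMA and Affymetrix Expression Console 1.1 are named for the deposited log2 values in the submitters' processing notes. As RMA output, they are already background corrected, normalized between arrays and summarised per probe set. Detection calls, scan dates and single probes were not used here. Per the labels' protocols, cDNA came from 450 ng of total RNA.

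Of 35556 probe sets, 21789 had 1 gene symbol in the platform annotation, 1621 several and 12146 none. The probe set with the highest mean stood for each gene, and the dimmest 30% of genes (mean log2 up to 6.53) were left out. A two-sided comparison without covariates was fitted by lmFit and eBayes of limma 3.58.1 (R 4.3.3) over 13953 genes with Benjamini-Hochberg adjustment and a threshold of 0.05. The code was tested on simulated data. Residual SDs had a median of 0.0943 (log2), and the 5 arrays per group limit the precision. The labels do not say that the mice came from separate litters or batches.

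The 10 genes, the lists, the pairs and the rule for named genes were chosen with earlier results of these data known. The rule names all 10 genes, up to 4 called genes with the widest change and up to 2 with the smallest change of each list, the 3 closest profiles, and Ppargc1a, Ppargc1b and Esrra. Not all of these are named. Same-numbered arrays correlated between 0.038 and 0.20 in their deviations from the group means. The same-numbered vehicle-labelled array was the best match for the tamoxifen-labelled arrays 1, 2 and 5, and another one for arrays 3 and 4. Replicate numbers were not taken as pairs in the main fit, and a fit with a replicate block was run as an alternative. Alternatives were array weights, median centring, quantile normalization, the replicate block, a robust prior with a trend, other filters, the mean of probe sets, probe sets of several genes, and each array left out. Figures used matplotlib 3.10.9.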

Additional observations from a re-analysis of the deposited data

Results flagged for a closer look

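Among the 20 sets of 5 arrays formed by the 10 genes and the 2 groups, 1 held an array that stood away from the others. Mief2 read 8.68 in the vehicle-labelled array 5, while the nearest of the other 4 read 8.76, a gap of 0.73 of the group's whole range. By this measure chance sets apart about 1 in 20 groups.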

How the results depend on the processing

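Of 190 values of the 10 genes under the alternatives, 179 kept their direction and their side of the threshold. The other 11 were the lost calls of Mff (10) and Oma1 (1) given above, and 0 changed direction. The count of genes among the 10 that fell was 5 to 7 and the count that rose 0 throughout. The replicate block left the count of the 10 that fell at 7 and gave 2225 higher and 1298 lower genes among all tested, against 1897 and 1155 without it. It changed no call of the 10 genes. Over all genes, 1784 were lower with array weights and 1692 after quantile normalization, and 2458 were higher with median centring. From 938 to 1649 were lower when 1 array was left out, the most without the tamoxifen-labelled array 2. The share of calls that were higher was 62.2% in the fit as reported, 49.6% without that array and 51.6% with array weights. It was 55.2% after quantile normalization and 65.7% with median centring. The median log2 fold change of all genes lay between -0.012 and 0.036 in every alternative. RMA values without detection calls do not show how far a signal stands above background.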
